A study of Rattus norvegicus with 4 samples.

Results

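The genes described here store iron in the cell, take it up, let it out or sense it. They were 8 gene symbols fixed by name, whatever their values: Fth1, Ftl1, Tfrc, Slc11a2, Slc40a1, Aco1, Ireb2 and Hmox2. Of these 8, 6 had rows in the mRNA table, which held 13114 gene names, and all 6 were among the 8012 genes tested. Ftl1 and Slc40a1 had no row under these symbols, and the rows whose descriptions name their products are given separately. The question was how the mRNA level of each differed between Sertoli cells exposed to 4-nonylphenol (4-NP) and control cells.

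The samples were 2 control and 2 4-NP-treated libraries of total RNA from rat primary Sertoli cells, the epithelial cells that surround developing germ cells in the seminiferous tubule. 4-NP is an alkylphenol and a xenoestrogen, and both groups were profiled at 24 h. Per the study's methods, the cells were enriched by enzyme digestion from the testes of young Sprague-Dawley rats, so each culture can hold other testicular cells. No genetic change is named for either group, and whether the 2 libraries of a group were grown as separate cultures is not in the labels, so the p-values reflect the spread among these libraries alone.

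Iron enters most cells bound to transferrin, which is taken up by the transferrin receptor, and is carried from the endosome to the cytosol by the metal transporter encoded by Slc11a2. Iron that is not used is held in the ferritin shell, which is built of heavy (Fth1) and light (Ftl1) chains, and leaves the cell through ferroportin (Slc40a1). Iron regulatory proteins, encoded by Aco1 and Ireb2, bind a hairpin called the iron-responsive element in mRNAs when iron is scarce, where they block translation of ferritin and stabilise the transferrin receptor mRNA. In the testis, Sertoli cells secrete transferrin, which carries iron to germ cells behind the blood-testis barrier.

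Levels are in FPKM, fragments scaled to transcript length and to the mapped fragments of the library, as deposited per transcript and summed per gene name. Since FPKM is a level per length, it can be set side by side between genes. Fold values are ratios of the mean FPKM of a group, whereas log2 changes are 4-NP minus control on log2(FPKM + 1), which understates the change of low genes. Tests were made with limma over the 8012 genes whose mean reached 1 FPKM, with Benjamini-Hochberg adjustment and a threshold of 0.05.

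The genes for storage and for uptake rose together in 4-NP-treated cells, whereas both iron regulatory protein genes were lower. Of these 2, the Ireb2 call was borderline, with a limma adjusted p of 0.0479, and was lost in 7 of 12 alternative fits. Of the 6 genes tested, 3 were higher (Fth1, Tfrc and Slc11a2), 2 were lower (Aco1 and Ireb2) and 1 did not pass the test (Hmox2). Across all genes, 47.8% of those tested passed in either direction, 24.7% as higher and 23.1% as lower. Both 4-NP libraries lay on one side of both controls for 5 of the 6 genes, as they did for 76.4% of all genes. With 2 libraries in each group and a background this high, a call in a single gene was common in these data. In such bulk libraries, a change in the make-up of the culture and a change in RNA per cell cannot be told apart.

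**Figure D1:**
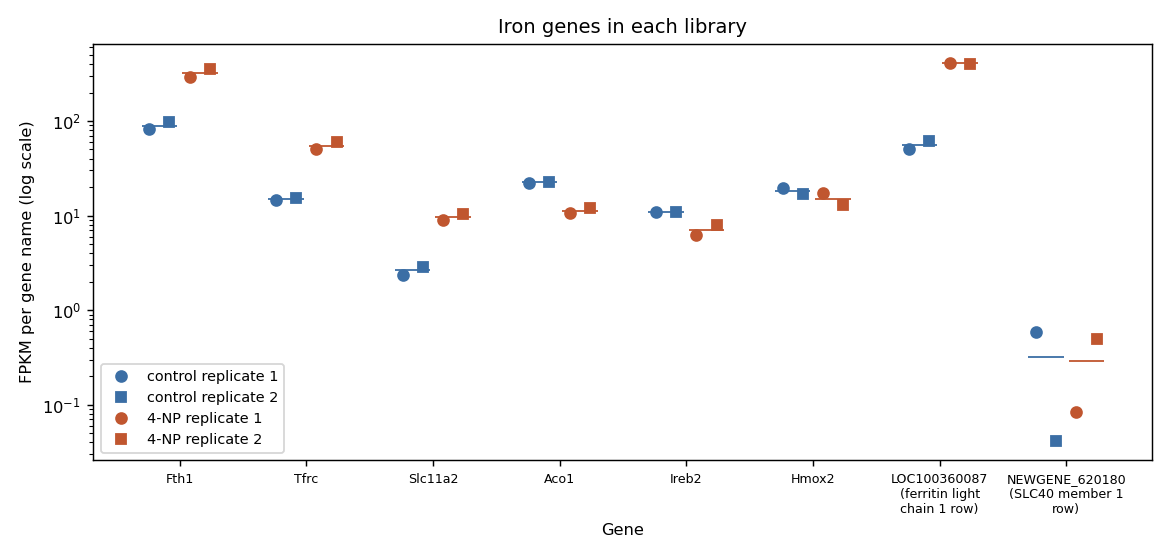
FPKM of each iron gene in the 4 libraries on a log scale, with control libraries in blue, 4-NP libraries in orange, replicate 1 as circles, replicate 2 as squares and short lines at the group means (n = 2). Fth1, Tfrc, Slc11a2 and the ferritin light chain row sit higher in both 4-NP libraries, Aco1 and Ireb2 sit lower, and the groups overlap for Hmox2 and for the row described as SLC40 member 1.

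Fth1 encodes the ferritin heavy chain, the subunit that oxidises ferrous iron as it enters the shell. It was the most abundant of the 6 genes in both groups, at 81.8 FPKM in control replicate 1 and 96.4 in control replicate 2, and at 295 and 355 FPKM in 4-NP replicates 1 and 2. The groups were well apart, with the lower 4-NP library above the higher control. The mean was 89.1 ± 10.4 FPKM in control and 324.8 ± 42.1 in 4-NP-treated cells (SD, n = 2), a 3.65-fold difference, and the log2 change was 1.85 ± 0.14 (SE), with a limma adjusted p of 0.00263. By log2 change Fth1 stood at position 231 from the top of the 8012 genes. All of its FPKM came from 1 transcript, ENSRNOT00000030919, which has 4 exons, is 830 bases long and lies on the plus strand of chromosome 1 from 226030938 to 226033228, in the coordinates of the deposited table (genome build not given in the sources used here).

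The ferritin light chain, which favours formation of the iron core inside the shell, was represented by another entry. No row bore the symbol Ftl1. The row LOC100360087 is described in the table as ferritin light chain 1, and it was taken up after the values had been seen. It is a transcript of 1 exon and 908 bases on the plus strand of chromosome 5, from 152325871 to 152326778. Rats carry near-identical copies of this gene, so reads of several copies may be counted here and the value is uncertain as that of a single locus. Its level was 50.1 and 61.5 FPKM in the control libraries and 411 and 404 FPKM in the 4-NP libraries. The 4-NP libraries were close to each other and far above both controls. The means were 55.8 ± 8.06 and 407.7 ± 4.98 FPKM (SD, n = 2), a 7.30-fold difference, with a log2 change of 2.85 ± 0.12 (SE) and a limma adjusted p of 0.00104.

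The ferritin light chain mRNA of mammals carries an iron-responsive element near its 5′ end, with a loop that reads CAGTG in DNA letters. A search of the first 50 bases after the start of each gene, on the sense strand, found it in 7.39% of 33469 windows of RefSeq's rat gene starts (build GRCr8), and it was present in LOC100360087 and in Ftl1l1, another ferritin light chain entry. The 30 bases that end the window are shown for both because they contain the loop, in capitals, and because they show how alike the copies are. They run from base 21 to base 50 after the start, and the loop begins at base 46 in LOC100360087, whose stretch is chr5:151606516-151606545 on the plus strand, and at base 43 in Ftl1l1, whose stretch is chrX:136687584-136687613 on the minus strand.
LOC100360087: cccgaggatctgtatcttgcttcaaCAGTG
Ftl1l1: gaggatctgtatcttgcttcaaCAGTGttt
The longest run that both stretches share is 27 bases. A match to 5 letters is a description and does not show a working element. The windows of Tfrc, Slc11a2, Slc40a1, Aco1, Ireb2 and Hmox2 did not hold these letters, which says nothing of elements elsewhere in their transcripts. The symbols Fth1 and Ftl1 had no window in this set, so neither was searched for the loop or for the upstream motifs below.

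A further row with a ferritin-like symbol went the other way. Fthl17c, whose row calls the product uncharacterized but annotates it with ferric iron binding and iron homeostasis, was also picked after its values were seen. It was at 7.55 and 6.11 FPKM in the control libraries and at 0.223 and 0.254 FPKM in the 4-NP libraries. Both 4-NP libraries were lower, with a log2 change of -2.66 ± 0.17 (SE) and a limma adjusted p of 0.00206, at a level far under that of Fth1.

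Tfrc encodes the transferrin receptor, which brings transferrin-bound iron into the cell. Its level was 14.5 and 15.2 FPKM in the control libraries and 50.3 and 59.6 FPKM in the 4-NP libraries. The controls were nearly level with each other, and both 4-NP libraries were far above them. The means were 14.8 ± 0.518 and 54.96 ± 6.57 FPKM (SD, n = 2), a 3.71-fold difference, with a log2 change of 1.82 ± 0.11 (SE) and a limma adjusted p of 0.0019. The single transcript listed, ENSRNOT00000002407, has 19 exons and lies on the minus strand of chromosome 11 from 71397383 to 71419223.

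Slc11a2 encodes the divalent metal transporter that moves ferrous iron across the endosomal and plasma membranes. It was the least abundant of the 6 genes in control cells, at 2.38 and 2.89 FPKM, and stood at 9.03 and 10.3 FPKM in the 4-NP libraries. The groups did not overlap. The means were 2.64 ± 0.362 and 9.66 ± 0.891 FPKM (SD, n = 2), a 3.66-fold difference, and the log2 change was 1.55 ± 0.15 (SE), with a limma adjusted p of 0.00431. Of its 4 listed transcripts, ENSRNOT00000026531 held between 95.1 and 99.9% of the FPKM in each library, so the rise was that of 1 transcript of 16 exons, on the minus strand of chromosome 7 from 142029971 to 142062870.

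Because Tfrc and Slc11a2 rose by similar folds, the sequence just upstream of their starts was compared for 3 short motifs, ACGTG (the core bound by hypoxia-inducible factors), TGACG (the core bound by ATF and CREB factors) and TGACNNNGC (the core of the antioxidant response element). They were searched on both strands in the 250 bases before each start in RefSeq's GRCr8 set. Of all 33469 windows, 16.6% held ACGTG, 18.2% held TGACG and 10.1% held TGACNNNGC, and the first and second motifs share the letters ACG and can overlap. The Tfrc window held ACGTG beginning 31 bases and TGACG beginning 16 bases before the start, both on the sense strand and both in capitals in the stretch below, whereas neither Slc11a2 window held any of the 3. The stretches run from 100 bases to 1 base before the start, at chr11:81690319-81690418 on the minus strand for Tfrc and at chr7:133417789-133417888 on the minus strand for Slc11a2.
Tfrc: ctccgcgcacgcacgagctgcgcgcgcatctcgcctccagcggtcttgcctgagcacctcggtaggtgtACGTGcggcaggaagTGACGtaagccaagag
Slc11a2: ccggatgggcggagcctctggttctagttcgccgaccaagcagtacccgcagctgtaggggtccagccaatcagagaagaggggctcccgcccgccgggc
Among the other windows, that of Ireb2 held TGACG, and the first of the Hmox2 windows held ACGTG and TGACNNNGC, all on the opposite strand, and those of Aco1 and Slc40a1 held none. Motif matches were thus found both in a gene that rose and in genes that did not, and they describe the letters only.

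Export could not be tested. Slc40a1, which encodes ferroportin, had no row under its symbol. The row NEWGENE_620180, described in the table as solute carrier family 40 member 1 and also taken up after the table was seen, lies on the minus strand of chromosome 9 from 52894365 to 52912293. It was at 0.594 and 0.0410 FPKM in the control libraries and at 0.0839 and 0.498 FPKM in the 4-NP libraries. One library of each group was near 0.5 FPKM and the other far lower, the groups overlapped, and the mean was under the filter of 1 FPKM.

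**Figure D2:**
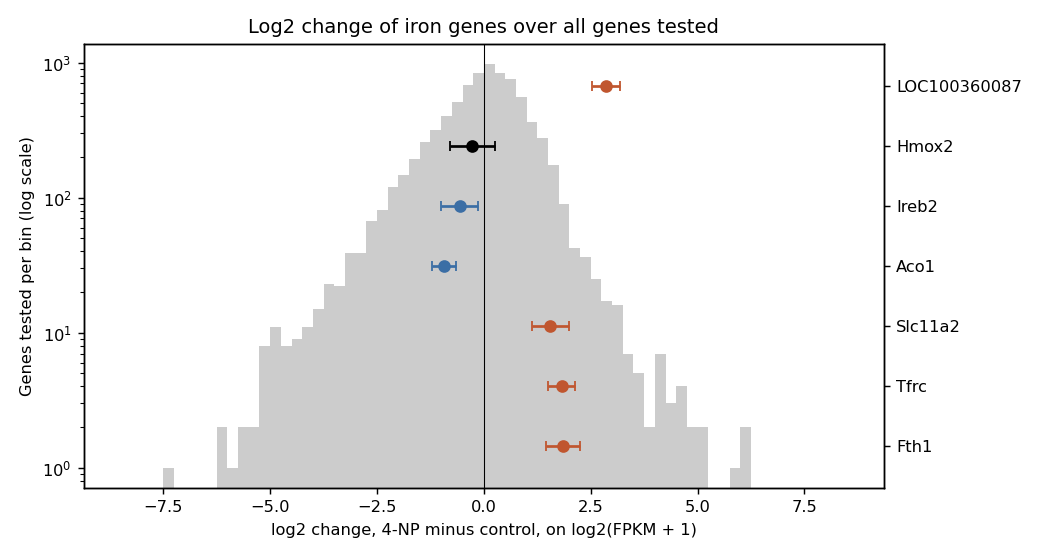
Log2 change on log2(FPKM + 1), 4-NP minus control, of the tested iron genes (points, right axis, with 95% confidence intervals from limma; orange higher, blue lower, black not passed) over the distribution of all 8012 genes tested (grey bars, left axis, log scale). The light chain row LOC100360087 at 2.85, Fth1 at 1.85, Tfrc at 1.82 and Slc11a2 at 1.55 lie on the right, Aco1 at -0.93 and Ireb2 at -0.57 on the left, and the interval of Hmox2 includes 0.

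Aco1 encodes iron regulatory protein 1, a cytosolic aconitase when it holds an iron-sulfur cluster and an RNA-binding protein when it does not. Its level was 22.3 and 22.7 FPKM in the control libraries and 10.5 and 12.1 FPKM in the 4-NP libraries. The controls almost coincided, and both 4-NP libraries were near the middle between them and 0. The means were 22.5 ± 0.296 and 11.3 ± 1.08 FPKM (SD, n = 2), a level 1.99-fold lower in 4-NP-treated cells, with a log2 change of -0.93 ± 0.10 (SE) and a limma adjusted p of 0.00549. Its transcript of 21 exons lies on the plus strand of chromosome 5 from 56425024 to 56481218.

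Ireb2 encodes iron regulatory protein 2, which has no aconitase activity and is degraded when iron is plentiful. It was at 10.8 and 11.005 FPKM in the control libraries and at 6.20 and 7.98 FPKM in the 4-NP libraries. Both 4-NP libraries were lower, with more spread between them than between the controls. The means were 10.9 ± 0.145 and 7.09 ± 1.27 FPKM (SD, n = 2), 1.54-fold lower in 4-NP-treated cells, and the log2 change was -0.57 ± 0.15 (SE), with a limma adjusted p of 0.0479, just inside the threshold. This call was lost in 7 of 12 alternatives. Without control replicate 1 the adjusted p was 0.160, without control replicate 2 it was 0.168 and without 4-NP replicate 1 it was 0.110, with a log2 change of -0.41 in the last. Its main transcript has 22 exons and lies on the plus strand of chromosome 8 from 59457018 to 59501118.

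Hmox2 encodes the constitutive heme oxygenase, which frees iron from heme. Its level was 19.7 and 16.8 FPKM in the control libraries and 17.3 and 12.8 FPKM in the 4-NP libraries. The groups overlapped, since 4-NP replicate 1 was above control replicate 2. The means were 18.2 ± 2.02 and 15.1 ± 3.16 FPKM (SD, n = 2), and the log2 change of -0.27 ± 0.18 (SE) did not pass the test (limma adjusted p of 0.300). The 95% confidence interval of the log2 change ran from -0.79 to 0.25, so a modest change in either direction was not resolved. Its main transcript of 6 exons lies on the minus strand of chromosome 10 from 10990034 to 11035484.

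The order of the levels changed between the groups. In control cells Fth1 was highest, followed by Aco1, Hmox2, Tfrc, Ireb2 and Slc11a2. In 4-NP-treated cells Fth1 was again highest, but Tfrc came next, followed by Hmox2, Aco1, Slc11a2 and Ireb2. The ranges of neighbouring genes did not overlap in either order, although each range rested on 2 libraries. In 4-NP-treated cells the gap between the means of Hmox2 and Aco1 was close to the SD of Hmox2.

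Ratios taken within a library are free of differences in scaling between libraries, and the pairs were chosen after the values had been seen, so they are given without a test. Fth1 and Tfrc kept a similar ratio, which was 5.65 and 6.35 in the control libraries and 5.86 and 5.95 in the 4-NP libraries. The 4-NP ratios lay between those of the controls. In contrast, the light chain row LOC100360087 was at 0.613 and 0.638 of the Fth1 level in the controls and at 1.39 and 1.14 in the 4-NP libraries. The light chain row was thus under Fth1 in both controls and above it in both 4-NP libraries. The ratio of Aco1 to Ireb2 was 2.06 in each control and 1.70 and 1.51 in the 4-NP libraries, lower in both. Hmox1, which encodes the inducible heme oxygenase, was at 1.08 and 1.32 of the Hmox2 level in the controls and at 8.72 and 12.0 in the 4-NP libraries, the widest shift of the 4 pairs.

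**Figure D3:**
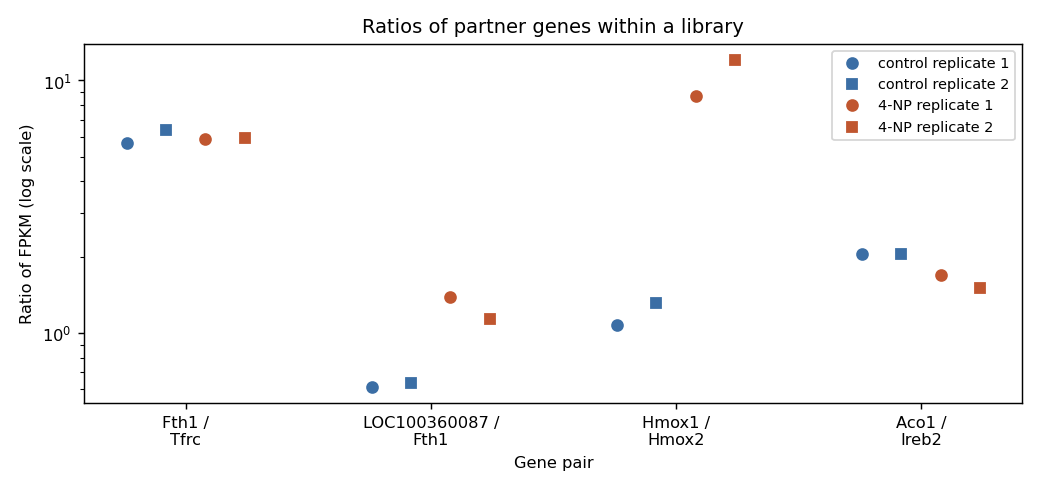
Ratio of the FPKM of 2 genes within each library on a log scale, with control libraries in blue, 4-NP libraries in orange, replicate 1 as circles and replicate 2 as squares. The Fth1 to Tfrc ratio stays between 5.65 and 6.35 in all 4 libraries, whereas the Hmox1 to Hmox2 ratio moves from 1.08 and 1.32 in the controls to 8.72 and 12.0 in the 4-NP libraries.

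The genes whose pattern was most like each of the 3 that rose were found by the root mean square difference of the centred log2(FPKM + 1) values over the 4 libraries. Candidates were the tested genes outside the fixed set of iron gene symbols. Symbols that begin with LOC, RGD or AABR were left out. For Fth1 these were Fgfr1op, which encodes a centrosomal protein (a difference of 0.0350), and Sar1b, which encodes a GTPase of vesicle budding from the endoplasmic reticulum (0.0486). For Tfrc they were Senp7, a SUMO protease gene (0.0280), and Sar1b again (0.0452). For Slc11a2 they were Bet1l, which encodes a Golgi SNARE protein (0.0272), and Cebpz (0.0317). With 4 libraries in 2 groups, such likeness mostly reflects a log2 change of similar size. Senp7 was near the floor, at 0 and 0.0636 FPKM in the control libraries and at 2.47 and 3.10 FPKM in the 4-NP libraries. Fgfr1op was also low, at 1.42 and 1.87 FPKM in the control libraries and at 8.23 and 9.59 FPKM in the 4-NP libraries. At such levels the added 1 shrinks the log2 change, so a match there is not a match in fold.

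Other genes that handle iron did not move as a block. In a list of further transport, binding and control genes, 15 of 29 were tested, of which 4 were higher, 2 were lower and 9 did not pass. The share called was 40%, beside 47.8% of all genes, and the median log2 change was -0.30, beside 0.05 over all genes. Lcn2, which encodes the siderophore-binding protein lipocalin 2, stood at 48.0 and 62.8 FPKM in the control libraries and at 982 and 913 FPKM in the 4-NP libraries. It was 17.1-fold higher, with a log2 change of 4.08 ± 0.15 (SE) and a limma adjusted p of 0.000946, larger than the change of any of the 6 genes above.

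Tf, the gene for transferrin, was at 94.2 and 86.5 FPKM in the control libraries and at 40.0 and 33.3 FPKM in the 4-NP libraries. The ligand was thus lower where its receptor Tfrc was higher, with a log2 change of -1.28 ± 0.12 (SE) and a limma adjusted p of 0.0039. Steap4, which encodes a metalloreductase, was at 1.72 and 2.36 FPKM in control cells and at 0.0151 and 0.141 FPKM in treated cells, with a limma adjusted p of 0.00885 that became 0.0516 without 4-NP replicate 1. Slc25a37, which encodes the mitochondrial iron importer mitoferrin 1, was at 0.351 and 0 FPKM in control cells and at 2.36 and 1.98 FPKM in treated cells, with a limma adjusted p of 0.013 that rose to as much as 0.0709 when either 4-NP library was left out. Ncoa4, the receptor that delivers ferritin to the lysosome, and Hpx, the gene for hemopexin, were the other genes that were higher, and both calls were lost when single libraries were left out. Ncoa4 was at 37.3 and 40.2 FPKM in control cells and at 51.0 and 51.2 FPKM in treated cells.

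Of the genes of heme synthesis, transport and breakdown, 12 of 16 were tested, of which 2 were higher, 4 were lower and 6 did not pass. The share called was 50%, beside 47.8% of all genes, and the median log2 change was -0.37. Both genes that were higher act in heme breakdown. Hmox1 was at 21.2 and 22.1 FPKM in the control libraries and at 151 and 154 FPKM in the 4-NP libraries, 7.04-fold higher, with a log2 change of 2.76 ± 0.06 (SE) and a limma adjusted p of 0.000619. Blvrb, which encodes biliverdin reductase B, was at 16.7 and 17.3 FPKM in control cells and at 33.8 and 29.3 FPKM in treated cells (limma adjusted p of 0.00681). Blvra, the gene for the other biliverdin reductase, went the opposite way, from 16.4 and 20.4 FPKM to 8.85 and 8.79 FPKM (limma adjusted p of 0.00991, and up to 0.0625 without single libraries). Urod, which encodes an enzyme of heme synthesis, and Tmem14c, a transporter of heme precursors, were also lower, and each of these calls was lost when at least 3 of the 4 libraries were left out in turn.

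Iron-sulfur cluster assembly is, beside heme, the main mitochondrial use of iron. Of 32 genes in this list, 26 were tested, of which 11 were higher, 3 were lower and 12 did not pass, with a median log2 change of 0.34. The share called was 53.8%, beside 47.8% of all genes, and 6 of the 11 higher calls were lost when at least 1 of the libraries was left out. Hspa9, the mitochondrial chaperone that hands over new clusters and also imports proteins, was at 196 and 203 FPKM in the control libraries and at 472 and 501 FPKM in the 4-NP libraries, with a log2 change of 1.28 ± 0.06 (SE) and a limma adjusted p of 0.00122. Nfu1, which encodes a late-acting cluster carrier, was at 24.6 and 19.2 FPKM in control cells and at 59.8 and 52.1 FPKM in treated cells. Bola3, whose product acts at the same late step, was at 14.9 and 13.4 FPKM in control cells and at 29.2 and 28.4 FPKM in treated cells. Nubp2, a cytosolic scaffold gene, was at 26.9 and 26.7 FPKM in control cells and at 45.1 and 44.0 FPKM in treated cells. These 4 genes remained past the threshold whichever library was left out. Fdxr (ferredoxin reductase) and Hscb (the cochaperone of Hspa9) were lower, and each of these calls was lost when either control library was left out.

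**Figure D4:**
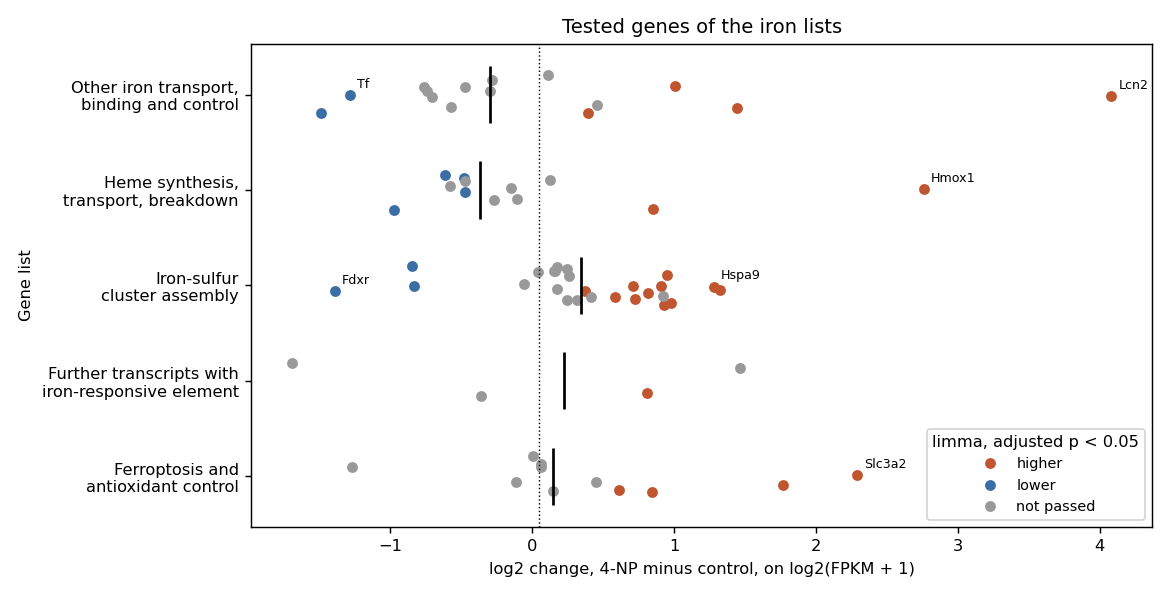
Log2 change on log2(FPKM + 1), 4-NP minus control, of each tested gene in 5 iron-related lists (orange higher, blue lower, grey not passed by limma; vertical scatter is only for display), with the median of each list as a black bar and that of all tested genes as a dotted line at 0.05. Each list holds genes on both sides of 0, and Lcn2 at 4.08 and Hmox1 at 2.76 lie farthest to the right.

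Further transcripts known to carry an iron-responsive element in mammals varied between replicates. Epas1, which encodes a hypoxia-inducible factor, was at 6.65 FPKM in 4-NP replicate 1 and listed at 0 in the other 3 libraries. Cdc42bpa, which encodes a kinase of the cytoskeleton, was at 0.985 and 4.24 FPKM in control cells and listed at 0 in both 4-NP libraries. Neither passed the test.

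Of 13 genes that set the sensitivity to ferroptosis, the iron-dependent form of cell death, 11 were tested. Of these, 4 were higher, none was lower and 7 did not pass. The share called was 36.4%, beside 47.8% of all genes, where 24.7% were higher and 23.1% lower. Slc3a2 and Slc7a11 encode the chains of the cystine importer. Slc3a2 was at 111 and 82.1 FPKM in control cells and at 479 and 463 FPKM in treated cells, and Slc7a11 was at 13.4 and 14.1 FPKM and at 25.0 and 26.0 FPKM. Both remained past the threshold whichever library was left out. Chac1, which encodes a glutathione-degrading enzyme, was at 4.17 and 7.81 FPKM in control cells and at 23.7 and 20.3 FPKM in treated cells, and its limma adjusted p of 0.016 rose to as much as 0.0942 when either 4-NP library was left out. Gpx4, the peroxidase that guards against lipid peroxides, was at 177 and 156 FPKM in control cells and at 237 and 143 FPKM in treated cells, and the groups overlapped.

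Over the 5 lists, 68 genes were tested, of which 22 were higher and 9 were lower. The share called was 45.6%, close to the 47.8% of all genes, and 11 of the higher and 8 of the lower calls were lost in at least 1 fit with a library left out. Without 4-NP replicate 1 the calls fell to 17 and without 4-NP replicate 2 to 15.

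Markers of several cell types moved with the groups. Over all genes tested, 24.7% were higher and 23.1% were lower. Of the Sertoli markers, 8 of 8 tested were lower in 4-NP-treated cells, their summed level being 206 and 190 FPKM in the controls and 59.8 and 51.4 FPKM in the 4-NP libraries. That list includes Tf, and its defining genes Sox9, Gata4 and Fshr were under 1 FPKM already in both controls. Of the markers of peritubular myoid cells, the contractile cells around the tubule, 8 of 9 were lower, with sums of 7904 and 7983 FPKM in the controls and 663 and 652 FPKM in the 4-NP libraries. Macrophages handle much iron. Of their 14 listed markers, 12 were in the table and 2 were tested, and both of these were lower. The summed macrophage level stood at 13.6 and 14.3 FPKM in control cells and at 1.63 and 2.03 FPKM in treated cells. C1qb, C1qc and Aif1 were at 0 in both 4-NP libraries. The summed endothelial markers were at 8.28 and 7.78 FPKM in control cells and at 0.641 and 0.451 FPKM in treated cells, with 2 of 2 tested markers lower. The Leydig cell sum was 311 and 306 FPKM in control and 814 and 788 FPKM in treated cells, but only 3 of the 6 markers were in the table and 1 was tested, and Cyp17a1 was under 1 FPKM in both controls and at 0 in both 4-NP libraries. The germ cell sum was 39.4 and 25.1 FPKM in control and 72.3 and 97.2 FPKM in treated cells, although of 5 tested markers 1 was higher and 4 were lower, with Ddx4 at 0 in both 4-NP libraries. Erythroid markers, the sign of red cell precursors rich in Tfrc and Slc11a2, were at 0.0482 to 0.441 FPKM in sum in every library. The part of these shifts in the iron gene differences was not tested.

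No row of the lncRNA table, which held 265 entries, was named for any of the 8 genes, and the circRNA table carries no gene names. No lncRNA row overlapped any of the 6 genes with mRNA rows. Ftl1 and Slc40a1 had no row and so no position, and overlap with them was not tested. The mapped reads, obtained from the circRNA counts and their scaled values, came to 116 and 119 M for control replicates 1 and 2 and to 104 and 96.6 M for 4-NP replicates 1 and 2. The median log2 ratio to control replicate 1 was 0.06 for control replicate 2 and 0.15 and 0.18 for the 4-NP libraries. Setting these ratios to 0 moved the median log2 change of all genes by -0.11, and Fth1, Tfrc, Slc11a2 and Aco1 kept their direction and their call.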

How the data were processed

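Total RNA of 2 control and 2 4-NP-treated libraries was sequenced. The authors deposited FPKM for each mRNA or lncRNA transcript. For circRNAs the authors deposited read counts and a signal scaled to mapped reads, used here only for depth. The processing notes name HISAT2 and DESeq2, the study names FastQC and edgeR, with versions, genome build and annotation not given in the sources used here. Deposited fold, p- and q-value columns were not used. FPKM keeps no counts, so no counting interval is given. The study describes its sequencing as strand-specific, but how strand entered the quantification is not given.

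Of 17290 mRNA rows, 1545 repeating a transcript ID were dropped, leaving 15745, and the rest were added up by gene name. The test was limma 3.58.1 (R 4.3.3) on log2(FPKM + 1), with a mean-variance trend and the group as the term, two-sided, with Benjamini-Hochberg adjustment over genes whose mean reached 1 FPKM. The fit was also run on simulated data with far fewer changed genes than were called here, and no result rests on that run. An exact permutation test of 2 against 2 cannot go below p = 0.333, so none was run. Groups and replicate numbers came from sample titles.

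The genes and lists were chosen with earlier results of these data known. Named were the 8 symbols and the 4 tested genes with the smallest p in each list. Also named were the 2 candidate genes most like each of the 8 with a log2 change beyond 1. Other genes were named after their values were seen, and some genes are not reported here. Sequences are from RefSeq (GRCr8), matched by symbol. Python 3.11.15, pandas 2.3.3 and matplotlib 3.10.9 were used. Alternatives were other scalings, pseudocounts, filters, thresholds, the top transcript, no trend, a replicate block and leaving out each library.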

Additional observations from a re-analysis of the deposited data

How the results depend on the processing

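Fth1, Tfrc, Slc11a2 and Aco1 kept their direction and their side of the limma threshold in all 12 alternatives, and Hmox2 passed in none. The row LOC100360087, whose alternatives were chosen after seeing the data, also kept its call in all 12. The log2 change ranged from 1.72 to 1.99 for Fth1, from 1.68 to 1.94 for Tfrc, from 1.42 to 1.84 for Slc11a2 and from -1.06 to -0.85 for Aco1. Ireb2 kept its direction but not its call, with a limma adjusted p of 0.0647 with no filter, 0.0520 with no trend, 0.0517 with the top transcript and 0.0256 to 0.168 over the 12. The cause was not tested. With the threshold the study states, an unadjusted p under 0.05 and a log2 change beyond 1, 3 of the 6 genes passed, all higher, and 2132 genes in all, Aco1 and Ireb2 having changes smaller than that. With 1 library left out, 4 to 5 of the 6 genes passed. Over all genes 3831 passed, and 2404 to 2824 did so with 1 library left out, where the lone library of a group is assumed to vary like the others. The lists gave 31 calls, and 15 to 27 with 1 library left out. A mean of at least 5 FPKM gave 1704 higher and 1158 lower genes, against 1981 and 1850. Whether same-numbered libraries were paired is not in the labels. Deviations of same-numbered libraries correlated at -0.01 over 8012 genes, which cannot settle it. For each of the 6 genes, replicates 1 and 2 differed in the same direction in both groups. With the replicate number as a block 3216 genes passed, and Ireb2 did not (limma adjusted p of 0.0713). Depth in reads per gene cannot be read from FPKM, so precision at low levels, such as that of NEWGENE_620180, is unknown.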
